A study of Homo sapiens with 6 samples.

Results

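The Hippo kinase core and its upstream regulators were examined as 10 genes chosen by symbol: STK3, STK4, SAV1, MOB1A, MOB1B, LATS1, LATS2, NF2, WWC1 and PTPN14. All 10 were listed among the 14987 genes of the deposited table, and all 10 passed the filter on low values (2 or more libraries with a value of 1 or more), as did 12263 genes in all. The material was mRNA of HCT116, an established line of epithelial origin from a human colorectal carcinoma. The factors crossed were glucose deprivation and interference with YAP. The groups were shYAP cells deprived of glucose for 6 h, 1 library each from the constructs shYAP1 and shYAP3; NC cells, labelled wild type, deprived for 6 h, 1 library; shYAP cells in control medium, 1 library from each construct; and NC cells in control medium, 1 library. The design thus asked how far the response to deprivation depends on YAP. A line stands for 1 construct, separate cultures are not stated, and p-values measure only the spread between these 6 libraries, which may be technical. With 1 NC library in each medium, NC cells were taken to vary as the shYAP libraries did.

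The Hippo pathway is a kinase cascade that restrains organ growth and responds to cell contact, polarity, mechanical load and energy supply. The MST kinases, encoded by STK3 and STK4, act with the scaffold SAV1 to phosphorylate and activate the LATS kinases and their MOB1 partners. LATS1 and LATS2 in turn phosphorylate YAP and its paralog TAZ, which keeps them out of the nucleus and away from the TEAD DNA-binding factors. NF2 (merlin) and WWC1 (KIBRA) bring the kinases to the cell cortex, and PTPN14, a non-receptor tyrosine phosphatase, binds YAP and is a further restraint on it. LATS2 is also known as a target of YAP and TEAD, a negative feedback.

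The libraries held 16912634 to 22161075 listed reads, and 1 read was worth 0.0406 to 0.0693 in the deposited normalized value. YAP1, the target of the knockdown, stood at 20.3 and 18.2 in deprived shYAP1 and shYAP3 cells, against 154 in deprived NC cells, and at 35.7 and 38.2 in shYAP1 and shYAP3 cells in control medium, against 188 in NC cells. Its log2 fold change in shYAP against NC cells was −2.63 (limma adjusted p = 0.00082). Of 11 colorectal epithelial markers 8 were listed and tested, with a summed share of 0.392% to 0.614% of listed reads, 3 of them higher (EPCAM, KRT8 and KRT18) and 1 lower (CDX2) after deprivation; the 3 higher calls were lost with quantile normalization (log2 0.26, −0.01 and 0.07) and with values scaled to equal listed totals (log2 0.22, 0.34 and 0.31). The markers CDX1, LGALS4 and CDH17 were not analysed here. Of 12 markers of fibroblasts, leukocytes and endothelium 7 were listed. Their summed share was 0.00221% to 0.00352% in deprived and 0.00216% to 0.00289% in control libraries. Of the 4 tested 2 were higher (HLA-DRA and CD68) and 1 lower (COL1A1) after deprivation. Under 9 other ways of processing HLA-DRA was called in 9, CD68 in 3 and COL1A1 in 7. In 6 fits with 1 library left out they were called in 4, 1 and 2, in that order. COL1A2, DCN, PTPRC, PECAM1 and CDH5 were not analysed here. Over all tested genes 16.5% were called higher and 15.6% lower after deprivation (limma adjusted p under 0.05). The part of either list in the results was not tested.

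The change after deprivation varied with transcript length, most in shYAP3 and least in NC cells. All tested genes were divided into 10 equal groups by length. The median log2 change in group 1, the shortest, was 0.31 in shYAP1, 0.61 in shYAP3 and 0.10 in NC cells. In group 10, the longest, it was −0.20 in shYAP1, −0.39 in shYAP3 and −0.03 in NC cells. Of the 10 members 9 lie in length groups 7 to 10, PTPN14 with 12985 bases in group 10, and SAV1 with 3063 bases in group 4. The part of length in the results was not tested. Values with trends on length and GC content removed are therefore given beside the calls among the 10 genes that they change, and beside some other results. For members without such a value below, the log2 change after deprivation with those trends removed was 0.67 for STK3, 0.03 for STK4 and −0.21 for SAV1. It was −0.27 for MOB1A, 0.26 for LATS1 and 1.09 for LATS2. The calls of these members stayed as reported below.

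Per kb of the longest annotated transcript, MOB1A had the highest mean level of the 10 genes in both media. After deprivation the means of the value per kb were 41.0 ± 6.66 for MOB1A, 16.2 ± 4.40 for SAV1, 11.7 ± 3.87 for WWC1, 10.3 ± 1.54 for STK4 and 8.55 ± 2.63 for STK3 (SD, n = 3 libraries each). They were 6.88 ± 2.34 for NF2, 4.90 ± 1.40 for LATS1, 4.62 ± 0.478 for MOB1B, 2.75 ± 1.80 for LATS2 and 2.42 ± 1.58 for PTPN14 (SD, n = 3 libraries each). MOB1A alone stood clear of its neighbour there, and all later neighbours in this order overlapped. In control medium the means per kb were 41.8 ± 0.841 for MOB1A, 16.8 ± 0.539 for WWC1, 15.9 ± 1.41 for SAV1, 10.8 ± 0.305 for STK4 and 10.2 ± 2.35 for NF2 (SD, n = 3 libraries each). They were 7.66 ± 1.03 for MOB1B, 4.47 ± 0.252 for STK3, 4.01 ± 0.131 for LATS1, 3.31 ± 0.348 for PTPN14 and 1.36 ± 0.316 for LATS2 (SD, n = 3 libraries each). The ranges of WWC1 and SAV1, of STK4 and NF2, and of NF2 and MOB1B overlapped in control medium, and those of the other neighbours did not. The transcript that is expressed need not be the longest, so the order of close neighbours depends on that choice.

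**Figure D1:**
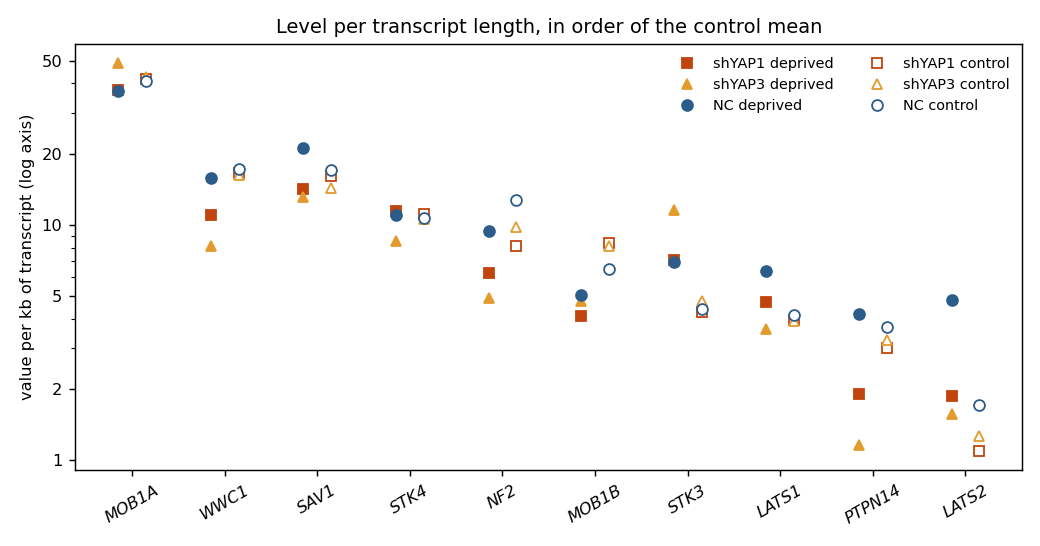
Deposited value per kb of the longest annotated transcript (log axis) for the 10 genes, in order of the mean in control medium, with 1 point per library, filled for deprived and open for control. MOB1A lies above all others in every library, and the deprived NC library of LATS2, at 4.82 per kb, lies apart from the other 5 libraries of that gene, at 1.10 to 1.87.

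The promoters of LATS2 and PTPN14 are shown because these genes had the lowest values in deprived shYAP relative to deprived NC cells. The windows are the 250 bases before the gene start from RefSeq (GRCh38.p14), both on the minus strand, LATS2 at chr13:21061587-21061836 and PTPN14 at chr1:214551603-214551852, and neither holds an annotated exon in GENCODE v29. Capitals mark matches to 3 motifs searched on both strands, GGAATG (the TEAD core), TGANTCA (AP-1) and TGATGNAA (the composite element of ATF4 and CHOP).
LATS2: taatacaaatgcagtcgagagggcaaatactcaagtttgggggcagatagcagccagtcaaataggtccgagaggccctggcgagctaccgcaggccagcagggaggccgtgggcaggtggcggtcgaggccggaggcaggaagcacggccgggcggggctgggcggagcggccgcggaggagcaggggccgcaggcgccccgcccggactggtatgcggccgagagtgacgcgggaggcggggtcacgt
PTPN14: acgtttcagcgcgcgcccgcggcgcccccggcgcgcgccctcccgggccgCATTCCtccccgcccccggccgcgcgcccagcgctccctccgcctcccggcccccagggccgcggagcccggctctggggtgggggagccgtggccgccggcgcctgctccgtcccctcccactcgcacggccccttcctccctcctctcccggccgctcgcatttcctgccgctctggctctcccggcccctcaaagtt
PTPN14 held GGAATG once, on the other strand and 200 bases before the start, and LATS2 held none of the 3 motifs. Over all 35116 promoter windows of this length 11.9% held GGAATG, 6.57% held TGANTCA and 3.14% held TGATGNAA. Windows were found for 9 of the 10 genes, all but STK3. Of these, MOB1B held TGANTCA once, 44 bases before its start, and LATS1, which has 2 windows, held TGATGNAA 74 bases before one start and TGANTCA 245 bases before the other. Unlike those of LATS2 and PTPN14, the MOB1B window holds annotated exon, up to 43 bases of MOB1B. The LATS1 window with TGANTCA lies over all 250 bases in an exon of AL358852.1 and holds up to 155 bases of LATS1 exon. The LATS1 window with TGATGNAA holds no annotated exon. No motif overlapped another. A match describes the letters and is not evidence of binding.

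After glucose deprivation the transcript of the kinase STK3 and that of the kinase LATS2 rose, those of the LATS partner MOB1B and of the cortical regulators NF2 and WWC1 fell, and the other 5 did not pass the test. Thus 2 of 10 genes were called higher and 3 lower, where 16.5% and 15.6% of all 12263 tested genes were called in those directions (32.1% in either direction, limma adjusted p under 0.05). The median log2 change of the 10 genes was −0.06, against 0.05 over all tested genes. In 3 of 10 genes, STK3, MOB1B and WWC1, the deprived and control libraries did not overlap, as in 50.6% of all tested genes. The 10 genes thus moved in both directions. In bulk RNA a change in the make-up of a culture and a change in RNA per cell cannot be told apart.

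**Figure D2:**
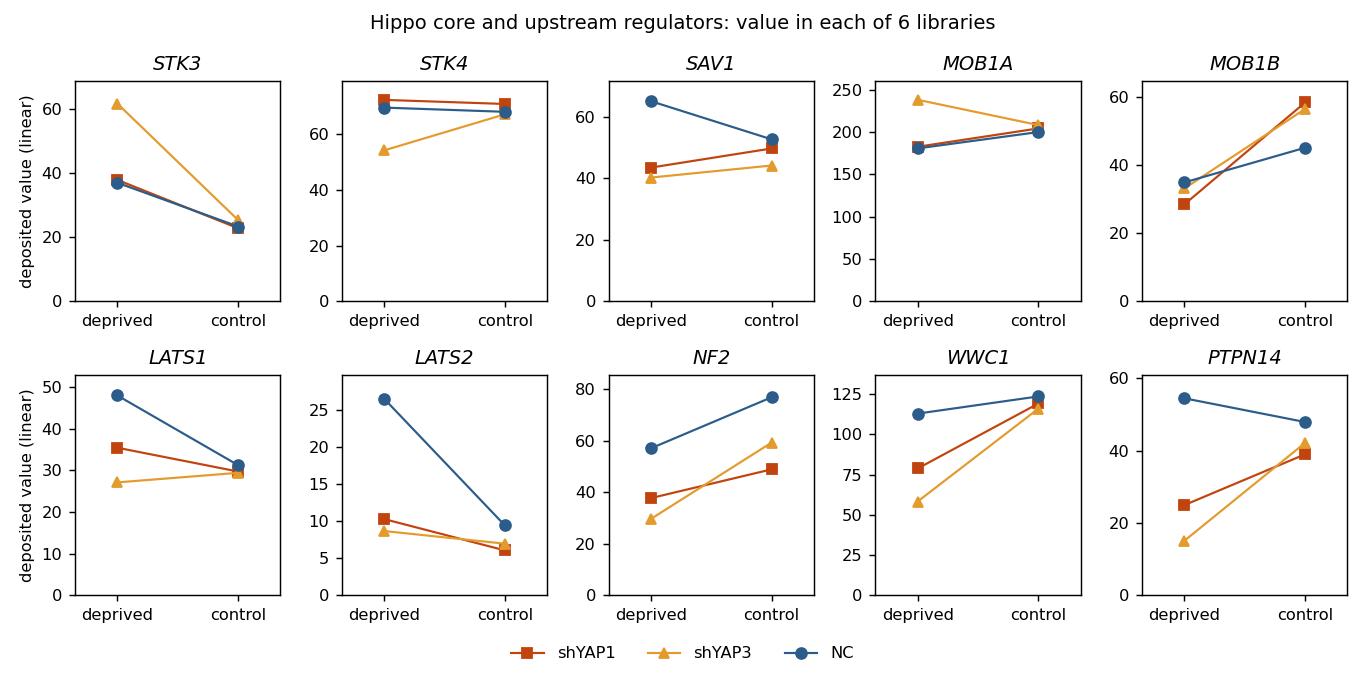
Deposited normalized value (linear axis from 0) of each of the 10 genes in the deprived and control library of shYAP1, shYAP3 and NC cells, with 1 point per library and a line joining the 2 media of each line of cells. STK3 is higher and MOB1B lower in every deprived library, and in LATS2 and PTPN14 the deprived NC library (26.6 and 54.5) lies above both deprived shYAP libraries (10.3 and 8.66, and 24.9 and 15.04).

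Of the MST kinases, STK3 rose and STK4 did not pass. STK3 stood at 37.9, 61.8 and 37.0 in deprived shYAP1, shYAP3 and NC cells, against 22.8, 25.4 and 23.4 in control medium. The 3 deprived libraries lay above all control libraries, and the shYAP3 deprived library was the highest. The log2 fold change of STK3, on the log2(value + 1) scale used for all fits, was 0.87 (SE 0.19, limma adjusted p = 0.011). STK4 stood at 72.4, 54.3 and 69.7 in deprived shYAP1, shYAP3 and NC cells and at 71.0, 67.2 and 68.1 in control medium. Only the shYAP3 pair of STK4 differed beyond counting error, at 0.807-fold (95% counting interval 0.739 to 0.881), and its log2 change over the 3 lines was −0.08 (SE 0.15, limma adjusted p = 0.69). STK3 did not pass without the NC control (adjusted p = 0.0503), NC deprived (0.0504), shYAP1 control (0.0697) or shYAP3 control library (0.0571).

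SAV1, the scaffold of the MST kinases, differed in sign between lines. It stood at 43.4, 40.2 and 65.0 in deprived shYAP1, shYAP3 and NC cells, against 49.7, 44.1 and 52.6 in control medium. The deprived NC library was the highest of the 6 and the deprived shYAP libraries were the lowest. Within lines the fold was 0.875 in shYAP1 (95% counting interval 0.798 to 0.959), 0.911 in shYAP3 (0.821 to 1.01) and 1.24 in NC cells (1.14 to 1.34). The log2 change over the 3 lines was −0.01 (limma adjusted p = 0.98).

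The MOB1 proteins are the coactivators that LATS kinases bind, and the minor transcript fell while the major one did not pass. MOB1B stood at 28.5, 33.1 and 34.9 in deprived shYAP1, shYAP3 and NC cells, against 58.4, 56.5 and 45.1 in control medium. The groups did not overlap, and the fall was to 0.488, 0.587 and 0.774 of the control value in shYAP1, shYAP3 and NC cells. The log2 fold change was −0.71 (SE 0.15, limma adjusted p = 0.011). MOB1A stood at 183, 238 and 181 in deprived shYAP1, shYAP3 and NC cells, against 204, 208 and 199.9 in control medium, with a log2 change of −0.04 (limma adjusted p = 0.86). The shYAP3 library of MOB1A moved up and the other 2 moved down. MOB1B lost its call where the control library of shYAP1 (adjusted p = 0.078) or of shYAP3 (0.073) was left out, and with length and GC trends removed it stood at −0.95.

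The LATS kinases phosphorylate YAP itself, and LATS2 had the largest change in NC cells among the 10 genes. LATS2 stood at 10.3, 8.66 and 26.6 in deprived shYAP1, shYAP3 and NC cells, against 6.04, 6.95 and 9.41 in control medium. Each line was higher after deprivation, and the deprived shYAP3 value lay below the NC control value. The fold was 1.701 in shYAP1 (95% counting interval 1.36 to 2.13, 177 against 149 reads), 1.25 in shYAP3 (0.976 to 1.59, 125 against 153 reads) and 2.82 in NC cells (2.40 to 3.33, 499 against 214 reads). The read counts of shYAP3 run the other way because 1 read was worth more in its deprived library. Over the 3 lines the log2 fold change was 0.79 (SE 0.21, limma adjusted p = 0.021). LATS2 did not pass without the NC control library (log2 0.48, adjusted p = 0.131), the NC deprived library (0.48, adjusted p = 0.135) or the shYAP1 control library (adjusted p = 0.0758), nor with values scaled to equal listed totals (log2 0.51, adjusted p = 0.11).

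LATS1 stood at 35.4, 27.1 and 48.0 in deprived shYAP1, shYAP3 and NC cells, against 29.7, 29.4 and 31.2 in control medium. The control libraries were nearly level, whereas the deprived ones ran in the order NC, shYAP1, shYAP3. The fold was 1.19 in shYAP1 (95% counting interval 1.07 to 1.33), 0.922 in shYAP3 (0.811 to 1.05) and 1.54 in NC cells (1.391 to 1.698). Over the 3 lines the log2 change was 0.25 (SE 0.17, limma adjusted p = 0.28), and it passed without the shYAP3 deprived library (log2 0.40, adjusted p = 0.012). With values scaled to equal listed totals the sign turned (log2 −0.05, adjusted p = 0.85).

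Among the regulators at the cell cortex, NF2 and WWC1 fell. NF2 stood at 37.7, 29.6 and 57.0 in deprived shYAP1, shYAP3 and NC cells, against 48.9, 59.3 and 76.9 in control medium. It was lower after deprivation within each line, with both NC libraries high, so that the groups overlapped across lines. The log2 fold change of NF2 was −0.59 (SE 0.15, limma adjusted p = 0.021). WWC1 stood at 78.8, 58.2 and 113 in deprived shYAP1, shYAP3 and NC cells, against 119, 116 and 124 in control medium. The groups did not overlap, and the deprived NC library was close to the control libraries. The log2 fold change of WWC1 was −0.57 (SE 0.18, limma adjusted p = 0.039).

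The calls of NF2 and WWC1 did not hold with length and GC trends removed. With those trends removed the log2 change was −0.22 for NF2 (adjusted p = 0.12) and −0.16 for WWC1 (adjusted p = 0.28). In length group 9, which holds both genes, the median log2 change was −0.14 in shYAP1, −0.29 in shYAP3 and −0.03 in NC cells. NF2 did not pass without the NC control (adjusted p = 0.0682), NC deprived (0.0678), shYAP1 control (0.0774) or shYAP3 control library (0.136), and WWC1 did not pass without the shYAP1 control (0.18) or shYAP3 control library (0.17) or with no filter (0.059). Without the shYAP3 deprived library the log2 change of WWC1 was −0.38, with adjusted p = 0.015.

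PTPN14 stood at 24.9, 15.04 and 54.5 in deprived shYAP1, shYAP3 and NC cells, against 38.99, 42.2 and 47.9 in control medium. Both NC libraries lay above all 4 shYAP libraries, and the lines differed in sign, with folds of 0.639 in shYAP1 (95% counting interval 0.569 to 0.717), 0.357 in shYAP3 (0.306 to 0.414) and 1.14 in NC cells (1.04 to 1.24). Over the 3 lines the log2 change was −0.62 (limma adjusted p = 0.096), and it passed with DESeq2 (0.036), with values scaled to equal listed totals (log2 −0.92, adjusted p = 0.029) and without the NC control (log2 −1.03, adjusted p = 0.0466) or NC deprived library (log2 −1.03, adjusted p = 0.0463). It was −0.31 without the shYAP3 deprived library (adjusted p = 0.13) and −0.29 with length and GC trends removed (adjusted p = 0.23).

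**Figure D3:**
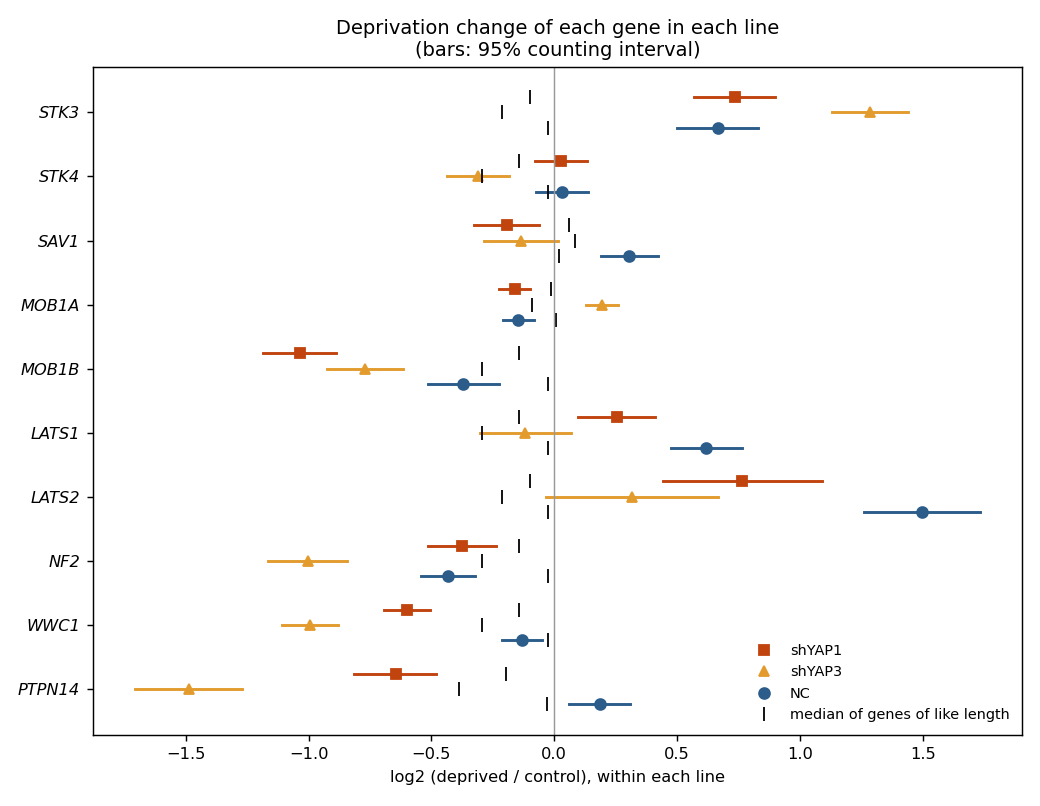
Log2 ratio of the deprived to the control value within shYAP1, shYAP3 and NC cells for each of the 10 genes, with 95% counting intervals that do not cover the spread between cultures; the black tick is the median of the tested genes in the same transcript length group in that line. STK3 lies right of its ticks in every line, MOB1B left of them, and PTPN14 lies left in both shYAP lines (−0.65 and −1.49) and right in NC cells (0.19).

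**Figure D4:**
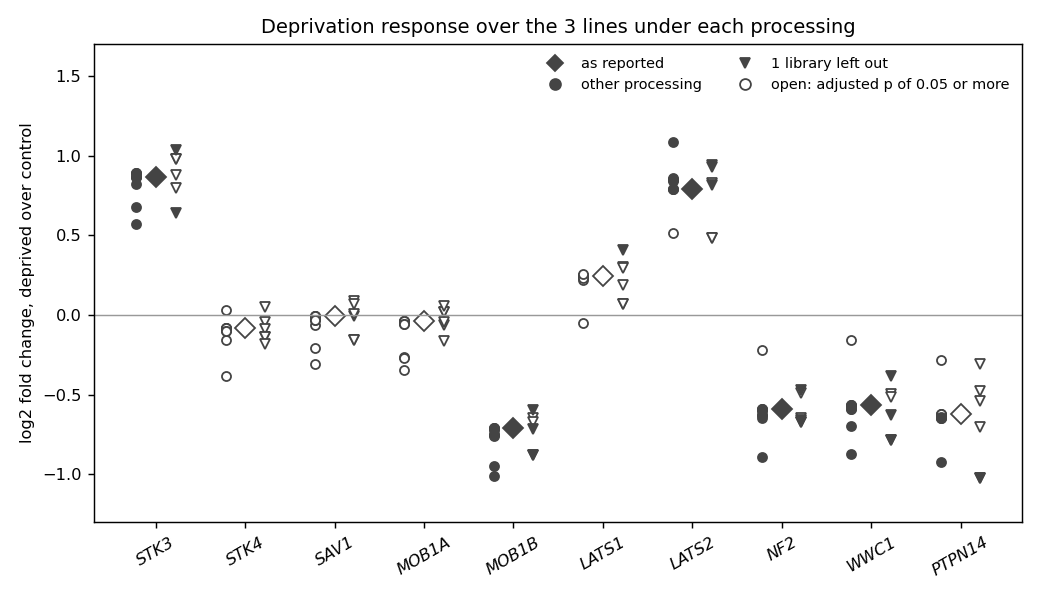
Log2 fold change of each gene over the 3 lines as reported (diamond), under other processing (circles) and with 1 library left out (triangles), filled where the adjusted p was under 0.05. The signs of STK3, LATS2, MOB1B, NF2, WWC1 and PTPN14 hold in each fit shown, while open symbols mark the fits without a call.

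The make-up of the paralog pairs was counted in reads within a library, where the scaling of the library cancels. Trends on length and GC content need not cancel. The GC content was 37.4% for STK3 and 43.4% for STK4, 34.3% for MOB1B and 37.3% for MOB1A, and 51.8% for LATS2 and 39.7% for LATS1. The part of these trends in the shares was not tested. The coding sequences of STK3 and STK4 were 75.29% identical at aligned bases, those of MOB1A and MOB1B 79.26% and those of LATS1 and LATS2 63.47%, and the longest stretch shared by the longest transcripts of a pair was 23, 25 and 20 bases in that order. No stretch of 50 bases was shared by them (0% in each pair). STK3 made up 34.37%, 53.23% and 34.71% of STK3 and STK4 reads in deprived shYAP1, shYAP3 and NC cells, against 24.32%, 27.38% and 25.53% in control medium. MOB1B made up 13.49%, 12.22% and 16.19% of the MOB1 reads in deprived shYAP1, shYAP3 and NC cells, against 22.23%, 21.35% and 18.41% in control medium. The shares of these 2 pairs did not overlap between media, and each line differed in the same direction.

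LATS2 made up 22.49%, 24.22% and 35.62% of the LATS reads in deprived shYAP1, shYAP3 and NC cells, against 16.91%, 19.12% and 23.16% in control medium. Each line was higher after deprivation, but the deprived shYAP1 share lay below the NC control share. The widest 95% Clopper-Pearson interval of these 18 shares was that of LATS2 in deprived shYAP3 cells, 20.59% to 28.16%. The mean log2 ratio of reads differed between media by 0.98 for STK3 to STK4, −0.69 for MOB1B to MOB1A and 0.61 for LATS2 to LATS1. The two-sided exact permutation p was 0.1, 0.1 and 0.2 in that order, and 0.1 is the smallest that 3 against 3 libraries can give. This permutation moved libraries freely between media and did not keep the pairing within a line or the genotype.

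**Figure D5:**
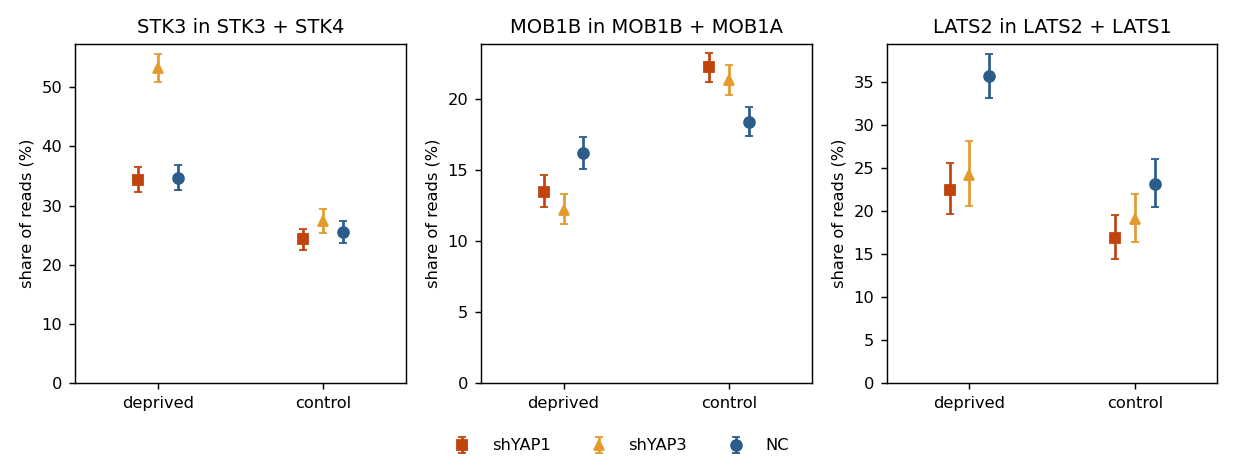
Share of the reads of each paralog pair (percent, axis from 0) that belonged to STK3, MOB1B and LATS2 in the deprived and control libraries of shYAP1, shYAP3 and NC cells; bars are 95% Clopper-Pearson intervals. The STK3 share is higher and the MOB1B share lower in the 3 deprived libraries, and the LATS2 share is highest in deprived NC cells at 35.62%.

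Knockdown of YAP changed none of the 10 genes past the threshold over both media (limma, 0 of 10, where 0.00815% of all tested genes were called, YAP1 being the only one). At an unadjusted p under 0.05 limma and edgeR had 4 of the 10 and DESeq2 had 5, against 898 (7.32%), 891 and 1047 of all 12263 tested genes, and edgeR and DESeq2 called 0 of the 10. Of the 10 genes 7 had a lower mean log2 value in shYAP cells, with a median log2 change of −0.37, against −0.01 over all tested genes, and with length and GC trends removed the median was −0.28. Each NC library alone moved these values. Without the NC control library, which leaves the deprived medium to set the genotypes apart, the median was −0.62, with LATS2 at −1.40, PTPN14 at −1.44, NF2 at −0.75 and SAV1 at −0.63 (limma adjusted p = 0.652 each). Without the NC deprived library, which leaves the control medium, the median was −0.07, with LATS2 at −0.48, PTPN14 at −0.24, NF2 at −0.51 and SAV1 at −0.17 (limma adjusted p = 1 each). The 4 with limma unadjusted p under 0.05 were LATS2 (log2 −0.94, SE 0.22), PTPN14 (−0.84, SE 0.28), NF2 (−0.63, SE 0.16) and SAV1 (−0.40, SE 0.16), each with limma adjusted p = 0.58. SAV1 and PTPN14 were the 2 of 10 genes whose shYAP and NC libraries did not overlap, both with the 4 shYAP libraries lower. Of all tested genes 10.9% did not overlap between genotypes, counted in either direction.

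Within the deprived medium 6 of the 10 genes were lower in both shYAP libraries than in the NC library beyond counting error, as were 15.2% of all tested genes. Passing a counting interval depends on the number of reads. The tested genes include ones with fewer reads than any of the 10, so the 15.2% is not a reference of like depth. The count of 6 was made after the values were seen and has no test. Over all genes of length group 9, which holds 5 of the 10, the median deviation from a gene's own log2 mean was −0.07 in deprived shYAP1, −0.24 in deprived shYAP3 and 0.04 in deprived NC libraries. The values in shYAP1 and shYAP3 cells were 0.387 and 0.326 of the NC value for LATS2, 0.457 and 0.276 for PTPN14, 0.661 and 0.519 for NF2, 0.698 and 0.516 for WWC1, 0.738 and 0.565 for LATS1 and 0.668 and 0.618 for SAV1. STK4 was lower in shYAP3 alone (0.779) and MOB1B in shYAP1 alone (0.815), while STK3 (1.67) and MOB1A (1.32) were higher in shYAP3 alone. In control medium LATS2 in shYAP1 and shYAP3 cells stood at 0.642 (95% counting interval 0.517 to 0.795) and 0.739 (0.596 to 0.913) of the NC value, and NF2 at 0.636 (0.590 to 0.685) and 0.771 (0.717 to 0.829). PTPN14 stood there at 0.814 and 0.880, SAV1 at 0.944 and 0.839, and MOB1B at 1.29 and 1.25. STK3, STK4, MOB1A, LATS1 and WWC1 lay between 0.938 and 1.09 of the NC value in control medium. With 1 NC library in each medium these ratios have no replicate check.

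The difference of the response to deprivation between shYAP and NC cells was largest in PTPN14 and LATS2 among the 10 genes, and none of the 10 genes passed the test of that difference (limma, 0 of 10, where 0% of all tested genes were called). At an unadjusted p under 0.05 limma and edgeR had 2 of the 10 and DESeq2 had 1, against 111 (0.905%), 119 and 84 of all 12263 tested genes, and edgeR and DESeq2 called 0 of the 10. The difference of log2 responses, shYAP minus NC, was −1.21 for PTPN14 (SE 0.44) and −0.92 for LATS2 (SE 0.35). It was −0.66 for WWC1 (SE 0.35), −0.54 for LATS1 (SE 0.34), −0.52 for MOB1B (SE 0.31), −0.46 for SAV1 (SE 0.30), −0.25 for NF2 (SE 0.35), −0.17 for STK4 (SE 0.34), 0.16 for MOB1A (SE 0.34) and 0.34 for STK3 (SE 0.44), each with limma adjusted p = 1. Of the 10 genes 8 were negative, with a median of −0.49, against 0.00 over all tested genes. In length groups 9 and 10 the median over all genes was −0.19 and −0.26, and with length and GC trends removed the median of the 10 genes was −0.34, PTPN14 standing at −0.86 and LATS2 at −0.75.

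This difference rested on the shYAP libraries that were used. Without the shYAP1 deprived library it was −1.56 for PTPN14, −1.03 for LATS2, −0.87 for WWC1, −0.72 for LATS1, −0.51 for SAV1 and 0.68 for STK3, and these 6 of 10 genes passed, as did 2735 of all tested genes. Without the shYAP3 deprived library PTPN14 alone of the 10 passed, at −0.86, with 269 of all tested genes, and STK3 stood at −0.01. Either fit takes its spread from the 2 shYAP control libraries alone, with 1 residual degree of freedom.

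Between the constructs, shYAP1 and shYAP3 over both media, limma called 0 of the 10 genes, where 0.155% of all tested genes were called (0.0897% higher and 0.0652% lower), and 0 of the 10 had an unadjusted p under 0.05 in limma, edgeR or DESeq2. The largest difference was in STK3, with a log2 difference of −0.42 for shYAP1 against shYAP3 (SE 0.24, limma adjusted p = 0.90).

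Further genes of the pathway were described by 6 lists, with 80 tested genes. Limma called 30 of them in the deprivation response, where 32.1% of all tested genes were called (16.5% higher and 15.6% lower). The counts of each list below stand against those shares. A list joined the TAO kinases, which act on MST, the MAP4K kinases, which act on LATS alongside MST, and the NDR kinases, relatives of LATS, with MOB relatives. Of its 16 tested genes 0 rose and 5 fell, with a median log2 change of −0.19, against 0.05 over all tested genes. STK38, the NDR1 kinase, which also binds MOB1, stood at 17.8, 18.1 and 23.5 in deprived shYAP1, shYAP3 and NC cells, against 33.3, 33.4 and 36.0 in control medium (log2 −0.77, limma adjusted p = 0.0049). MINK1 (log2 −0.73, adjusted p = 0.021), a MAP4K family kinase, MOB3B (−0.68, adjusted p = 0.017) and TAOK2 (−0.49, adjusted p = 0.031), a kinase that can phosphorylate MST, fell too, and TAOK2 did not pass with length and GC trends removed (log2 −0.14, adjusted p = 0.24). STK38 passed without each library in turn, and MINK1, MOB3B and TAOK2 in 2 of 6 fits with 1 library left out.

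The STRIPAK complex joins the phosphatase PP2A to MST kinases and holds them inactive, and its genes moved both ways. Of 18 tested 5 rose and 2 fell, with a median log2 change of 0.14. CTTNBP2NL (log2 0.81, limma adjusted p = 0.0096) and FGFR1OP2 (0.69, adjusted p = 0.015), subunits of the complex, rose, while PPP2R1B (−0.58, adjusted p = 0.013), a scaffold subunit of PP2A, and STRIP2 (−0.53, adjusted p = 0.021) fell. FGFR1OP2 did not pass with values scaled to equal listed totals or with length and GC trends removed (lowest log2 0.19 and highest adjusted p 0.21 over the alternatives). CTTNBP2NL, PPP2R1B and STRIP2 passed in 2 of 6 fits with 1 library left out, and FGFR1OP2 in 3. Of the RASSF scaffolds, several of which bind MST kinases, 8 of 10 were tested, 0 rose and 2 fell. RASSF2 stood at 7.49, 5.89 and 9.84 in deprived shYAP1, shYAP3 and NC cells, against 16.8, 19.2 and 22.8 in control medium (log2 −1.25, limma adjusted p = 0.0013), and passed without each library in turn. RASSF1 had a log2 change of −0.44 (limma adjusted p = 0.031) and passed in 2 of 6 fits with 1 library left out.

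Polarity and junction scaffolds set where Hippo regulators sit in an epithelial cell, and 2 of 19 tested rose and 3 fell, with a median log2 change of −0.02. SCRIB (log2 −0.97, limma adjusted p = 0.0055), DLG5 (−0.86, adjusted p = 0.0075) and LLGL1 (−0.67, adjusted p = 0.0086), scaffolds of cell polarity, fell, and they passed in 6, 5 and 2 of 6 fits with 1 library left out, in that order. EZR, which links the membrane to actin, rose by a log2 change of 0.72 (limma adjusted p = 0.012), but not with quantile normalization (log2 0.15, adjusted p = 0.37), and in 2 of 6 fits with 1 library left out. Of the atypical cadherins and their modifier, all 3 tested of 7 fell, with a median log2 change of −0.71. FJX1, a Golgi kinase of the cadherin system, had a log2 change of −1.07 (limma adjusted p = 0.0021), while FAT4 (−0.59, adjusted p = 0.024) and FAT1 (−0.71, adjusted p = 0.042) did not pass with length and GC trends removed (highest adjusted p 0.13 and 0.17 over the alternatives). FJX1 passed without each library in turn, and FAT4 and FAT1 in 2 of 6 such fits.

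Inhibitors of LATS and ubiquitin ligases of the pathway moved both ways. Of 16 tested 5 rose and 3 fell, with a median log2 change of 0.01. PJA2, a ubiquitin ligase reported to degrade MOB1, stood at 165, 239 and 171 in deprived shYAP1, shYAP3 and NC cells, against 75.1, 73.6 and 56.3 in control medium (log2 1.47, limma adjusted p = 0.00081). SIAH2, a ligase reported to degrade LATS2 in hypoxia, rose by a log2 change of 0.91 (adjusted p = 0.0032) and ZYX, the LIM protein zyxin, by 1.19 (adjusted p = 0.0068). LIMD1, a LIM protein that inhibits LATS, stood at 35.7, 29.04 and 47.4 in deprived shYAP1, shYAP3 and NC cells, against 67.5, 69.9 and 73.2 in control medium (log2 −0.92, limma adjusted p = 0.0040). PJA2, SIAH2 and LIMD1 passed without each library in turn, and ZYX in 4 of 6 such fits. Of 10 effectors and angiomotins 2 rose, AMOTL2 (log2 2.00) and WWTR1 (0.60), and 2 fell, YAP1 (−0.70) and TEAD3 (−0.55), at limma adjusted p = 0.0032, 0.025, 0.013 and 0.019 in that order. AMOTL2 passed without each library in turn, YAP1 in 4 of 6 such fits and WWTR1 and TEAD3 in 2, and WWTR1 did not pass with values scaled to equal listed totals.

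In the knockdown over both media and in the difference of responses limma called 0 of these 80 genes, and edgeR and DESeq2 called 0 as well. At a limma unadjusted p under 0.05 there were 12 and 1 of the 80, against 7.32% and 0.905% of all tested genes.

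The gene whose log2 values were most like those of each member over the 6 libraries, among 10435 genes with a mean value of at least 5, was FBXO8 for STK3 (Pearson r 0.998), WDR27 for STK4 (0.993), PRRC1 for SAV1 (0.993), RFX5 for MOB1A (0.992) and ZFC3H1 for MOB1B (0.993). It was HK2 for LATS1 (0.989), TAF8 for LATS2 (0.987), ELF4 for NF2 (0.994), ZNF264 for WWC1 (0.998) and TECPR1 for PTPN14 (0.997). These values describe 6 libraries that share media and constructs, and between 14 genes (SAV1) and 802 genes (STK3) exceeded an r of 0.95.

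Some reads cannot be assigned to one gene with certainty, since strand-specific counting is not stated. In GENCODE v29 exons of SAV1 overlap ATL1 on the other strand by 840 bases, those of LATS1 overlap AL358852.1 on the other strand by 408 bases, those of STK3 overlap AP003355.2 on the other strand by 106 bases, and those of MOB1B overlap DCK on the same strand by 199 bases. Exons of PTPN14 overlap the pseudogene KRT18P12 on the other strand by 1213 bases and AL929236.1 on the same strand by 151 bases. The other 5 genes overlap no annotated exon of another gene.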

How the data were processed

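mRNA was taken with oligo-dT beads, fragmented and ligated to Illumina adapters, per the labels' protocols. Bowtie2, BWA and the human build hg19 are named in the submitters' processing notes, with no role or version; a read counter, annotation and strand setting are not given in the sources used here. The authors deposited a normalized signal for each gene; how it was scaled is not given in the sources used here. Divided by what 1 read is worth in its library, 100% of values came out whole within 0.01 read, which gave back the reads. The table lists no gene at 0 in the NC control library, and genes without reads in it were not analysed here. As the values are normalized, log2(value + 1) was tested with limma 3.58.1 in R 4.3.3, its prior variance following the mean, with Benjamini-Hochberg adjustment over 12263 genes. The response and the knockdown came from an additive model of genotype and medium, their interaction from 1 mean per group, and the constructs from a model of construct and medium. edgeR 4.0.16, which called 3848 genes in the response against 3936 with limma, and DESeq2 1.42.0 on the recovered reads were alternatives. The labels pair the 2 libraries of a construct across media, and the deviation of shYAP1 from shYAP3 correlated at 0.102 over 12263 genes between media. Transcript length and GC were taken from each gene's longest model in GENCODE v29 (GRCh38), known for 98% of genes; no hg19 coordinates are given. Counting intervals (95%) and shares cover counting error only. A gene with 0 reads would allow up to 3 reads, worth 0.122 to 0.208. Named genes were all members, and in each other list up to 4 called genes with the smallest p of the response. Members, lists, tests and alternatives were chosen with earlier results of these data known. SAV1 and PTPN14 are singled out between genotypes by their values.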

Additional observations from a re-analysis of the deposited data

Results flagged for a closer look

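In PTPN14 and SAV1, 2 of the 10 genes, both shYAP lines moved one way after deprivation and NC cells the other way. Each line had 1 library per medium. These genes were picked by their values, and the share of all tested genes with this pattern was not counted. The fall of SAV1 in shYAP3 cells lay within counting error (fold 0.911, counting interval 0.821 to 1.01). The shYAP minus NC difference of log2 responses was −1.21 for PTPN14 (limma adjusted p = 1) and −0.46 for SAV1 (limma adjusted p = 1), so neither passed the test of the difference.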

How the results depend on the processing

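The deprivation response of the 10 genes was called for 5 (2 higher, 3 lower) and for 3 with length and GC trends removed (2 higher, 1 lower, the loss being NF2 and WWC1); with values scaled to equal listed totals 1 was higher, LATS2 being lost. Under that scaling all tested genes had a median of −0.24, against 0.05 as reported. With 1 library left out the called genes among the 10 ranged from 0 to 6 (0 to 3 higher, 0 to 3 lower) and the called genes over the table from 1086 to 5306, against 3936 (3382 to 4609 under the other settings); without the shYAP1 or shYAP3 control library 1150 and 1086 were called, without the NC control or NC deprived library 1412 and 1416. For the knockdown the table held 7 calls with DESeq2 and 0 to 5 with 1 library left out, against 1, and 0 of the 10 genes in each fit. For the difference of responses it held 0 calls, 1 with DESeq2 and 1 to 2735 with 1 library left out, where 0 to 6 of the 10 genes passed (0 to 1 higher, 0 to 5 lower). Between constructs the 19 calls became 141 with length and GC trends removed, 0 with no filter, 4 with equal listed totals and 1 with DESeq2. With the replicate block, which pairs the libraries of a line, the response had 4453 calls and the same 5 of the 10 genes, and the difference of responses 4 calls and 0 of the 10; it changed no call among the 10. KRT8, an epithelial marker, was called higher but stood at −0.0063 with quantile normalization (adjusted p = 0.97). Fits with 1 library left out hold fewer libraries, and the cause of these changes was not tested. The block could not be fitted for the knockdown, which lies between lines, nor the difference of responses without an NC library, nor the constructs with a library left out. Depth limits LATS2 most, with 125 to 499 reads per library.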
